A study of Mus musculus with 4 samples.

Results

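The genes described here are 46 mouse genes whose products bring proteins into the endoplasmic reticulum (ER), fold them there and remove those that fail to fold. They were taken by name from the deposited tables, and they are 46 of 23235 gene symbols. The list of names was chosen with earlier results of these data known. All 46 were present with 1 row each and passed the filter on low values, a mean of at least 1 FPKM, which 11953 symbols passed. FPKM is the number of sequenced fragments of a gene scaled by its length and by the library's total. The genes fall into 5 steps: 5 sensors and regulators of the unfolded protein response, 11 chaperones and co-chaperones, 7 disulfide isomerases and oxidases, 14 genes of translocation and signal peptide cleavage, and 9 genes of ER-associated degradation.

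Poly-A RNA was sequenced from pancreatic islets of C57BL/6 mice that were either wild type (WT) or KR mutant, and either fasted or refed. KR stands for a FoxO1 allele, known from the study, in which arginine takes the place of lysines that are normally acetylated in this transcription factor, and the labels name no promoter or Cre line that would limit it to a cell type. Islets of 3 mice were pooled per genotype, and WT and KR islets, fasted and refed, make 4 groups of 1 library each without replicates. The titles give a fast of 48 h followed by 6 h of refeeding, and the extraction protocol gives a fast of 24 h. Every mouse had therefore been fasted, and no group was fed without a preceding fast. Neither age nor sex of the mice is stated in the labels.

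The ER is where a beta cell makes insulin. The precursor enters through the Sec61 channel, loses its signal peptide, forms its disulfide bonds and folds with the help of chaperones such as BiP. When unfolded protein accumulates, the membrane sensors IRE1 (Ern1), ATF6 and PERK (Eif2ak3) start the unfolded protein response, in which IRE1 splices the mRNA of Xbp1 and ATF6 is cut to release a transcription factor. Both pathways are known to raise chaperones and degradation factors through short promoter elements called ER stress response elements (ERSE).

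Promoters were read from RefSeq (build GRCm38.p6, 250 bases before to 50 bases after each gene's start) and matched for 39 of the 46 genes, Ero1l and Ero1lb by their current names. Atf6, Hyou1, Manf, Sec61a1, Ssr2, Spcs3 and Derl1 had no match. The ERSE, CCAAT and CCACG separated by any 9 bases, was searched on both strands. It was present in 10 of the 39 promoter windows (25.6%) and in windows of 37 of all 27025 genes (0.137%), the members included. By step it was found in 6 of 9 chaperones, 2 of 7 disulfide genes and 2 of 8 degradation genes. It was found in 0 of 4 sensors and regulators and in 0 of 11 translocation genes. The sites are shown because they mark which of the 5 steps carry the element, with its fixed letters in capitals and read on the strand that spells CCAAT first. They begin at positions -212 (Hsp90b1) to -44 (Syvn1) relative to the start.
Hspa5: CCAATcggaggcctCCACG
Hsp90b1, upstream: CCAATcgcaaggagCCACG
Hsp90b1, downstream: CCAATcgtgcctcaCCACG
Calr: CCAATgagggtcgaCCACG
Canx: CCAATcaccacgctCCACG
Dnajc3: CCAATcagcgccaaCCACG
Creld2: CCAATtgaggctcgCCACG
Pdia6: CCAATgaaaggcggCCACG
Ero1lb: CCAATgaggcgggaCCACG
Syvn1: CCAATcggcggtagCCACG
Derl3: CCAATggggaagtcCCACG

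The related ERSE-II, ATTGG and CCACG separated by 1 base, was present in 2 of the 39 genes and in 12 of the 27025 (0.044%). Its fixed letters are in capitals.
Herpud1: ATTGGgCCACG
Dnajb11: ATTGGcCCACG

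The core CCACG alone, which both elements contain, was present in 31 of 39 windows (79.5%) against 35.5% of all genes. None of the 39 windows held TGACGTGG (0.714% of all genes), the FoxO motif TGTTTAC (4.05%) or TGATGNAAT (1.08%), each searched on both strands. A match describes the letters of the window and not binding by a factor. Of the 39 genes, Hsp90b1 was the one with a pair of exact ERSE matches. Sequences that differ from an element in a fixed letter were not counted. The 250 bases before the start are shown for 3 genes to which the results return. They are Hspa5 (chr2:34771840-34772089, plus strand), Hsp90b1 (chr10:86705445-86705694, minus strand) and Herpud1 (chr8:94386179-94386428, plus strand). All are 5′ to 3′ in the direction of the gene, with each exact ERSE or ERSE-II in capitals.
Hspa5: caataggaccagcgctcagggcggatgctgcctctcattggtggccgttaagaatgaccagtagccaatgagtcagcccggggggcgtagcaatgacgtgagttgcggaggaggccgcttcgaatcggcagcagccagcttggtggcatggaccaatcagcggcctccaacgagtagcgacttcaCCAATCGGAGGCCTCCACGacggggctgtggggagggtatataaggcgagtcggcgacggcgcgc
Hsp90b1: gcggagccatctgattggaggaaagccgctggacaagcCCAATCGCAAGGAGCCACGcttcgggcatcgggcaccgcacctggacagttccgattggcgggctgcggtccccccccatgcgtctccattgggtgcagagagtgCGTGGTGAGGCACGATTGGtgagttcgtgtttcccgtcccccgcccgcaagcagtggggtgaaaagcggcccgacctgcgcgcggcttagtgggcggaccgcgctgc
Herpud1: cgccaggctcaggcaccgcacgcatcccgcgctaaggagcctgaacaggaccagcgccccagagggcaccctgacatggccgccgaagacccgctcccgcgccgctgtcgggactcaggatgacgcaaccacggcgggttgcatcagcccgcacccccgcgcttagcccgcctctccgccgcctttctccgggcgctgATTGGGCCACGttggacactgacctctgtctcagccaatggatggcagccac

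Depth, estimated from the deposited bounds of each FPKM value, was 11074797 to 26407398 fragments per library and lowest in refed KR. The members' bounds lay at a median of 2.03% on either side of the value in fasted WT and 3.54% in refed KR, and they cover counting error only. Beta cell markers were measured in every library except for Ins2 in fasted KR, where its value is missing. Of 7 beta markers tested, 5 rose with refeeding and 5 were higher in KR. Of 15 acinar markers, 11 had a mean under 1 FPKM and 10 were listed at 0 in at least 1 library, and their summed FPKM was 60.9 to 78.2. With refeeding 4 of 5 endothelial, 4 of 5 stellate and fibroblast and 2 of 5 macrophage markers fell. In the other direction, 1 stellate and fibroblast marker (Acta2), 2 of 2 tested duct markers and 1 of 5 alpha, delta and PP cell markers rose. Of 3 acinar markers tested, 2 rose and 1 fell. Summed B and plasma cell markers ranged from 6.35 in fasted WT to 17.9 in fasted KR. Transcripts of 11 members match that of another gene at 95% identity or more over at least 200 bases, and the loci of 5 (Pdia4, Pdia6, Spcs1, Srpr and Syvn1) overlap another gene, so fragments could be shared there. The part of cell composition in the results below was not tested, and in these bulk pools fewer cells of a type cannot be told apart from less RNA per cell. Foxo1 itself had an FPKM of 17.4 in fasted WT, 14.1 in fasted KR, then 18.8 in refed WT and 13.8 in refed KR, and an exchange of amino acids leaves its level no check of the labels.

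**Figure D1:**
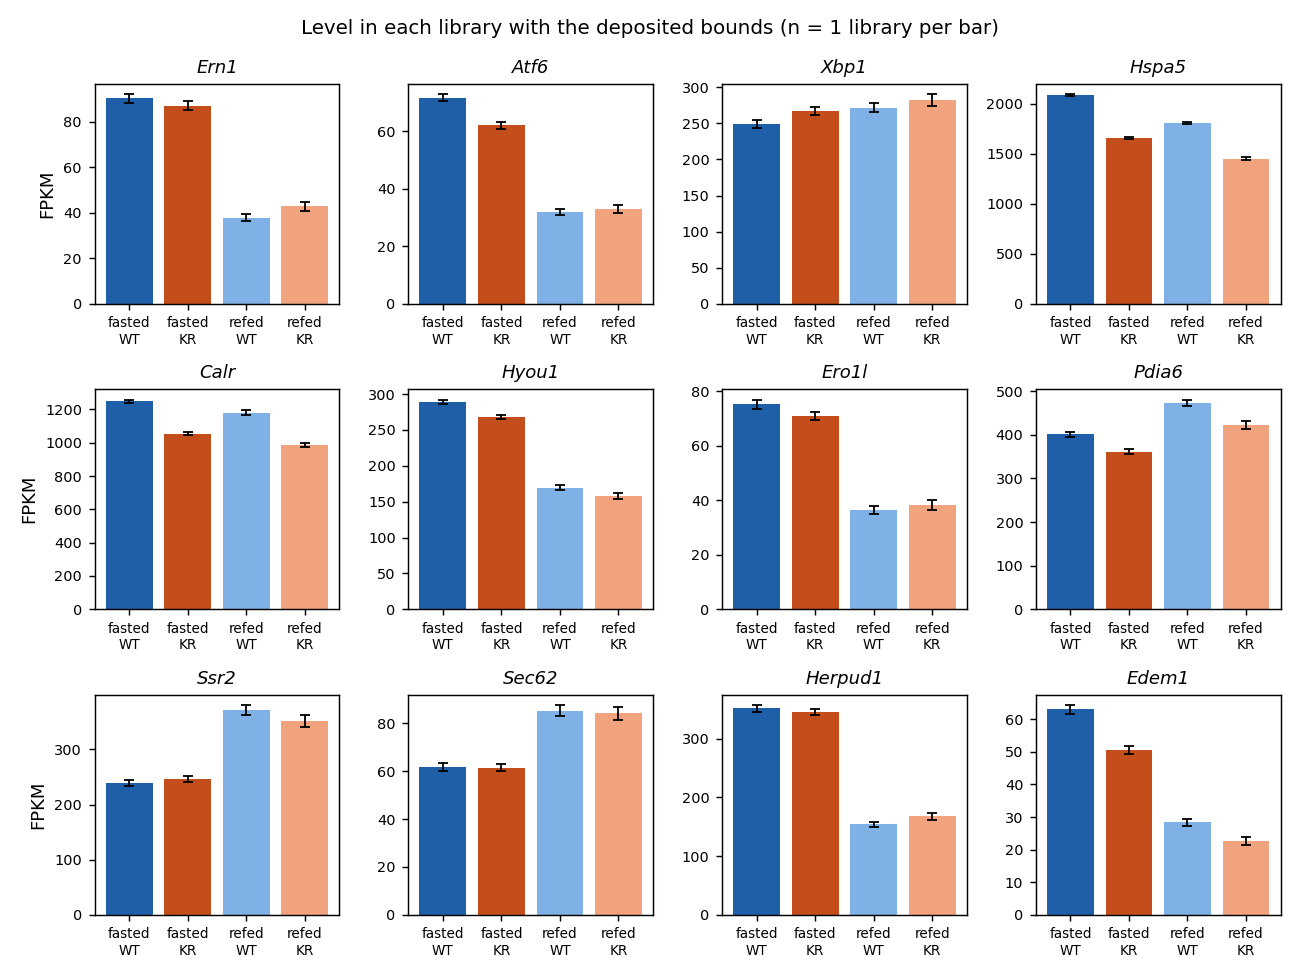
FPKM of 12 of the 46 genes in each library, on linear axes that start at 0 and differ between panels, with 1 library per bar and the deposited lower and upper bounds as error bars. Both refed bars lie below both fasted bars for Ern1, Atf6, Hyou1, Ero1l, Herpud1 and Edem1. They lie above them for Xbp1, Ssr2, Sec62 and Pdia6. For Hspa5 and Calr both KR bars lie below both WT bars.

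After refeeding most sensors and regulators, degradation genes and chaperones were lower, while more translocation genes rose than fell and the disulfide genes were divided. In the additive limma model over the 4 libraries, 35 of the 46 genes passed an adjusted p of 0.05 for feeding state, against 56.9% of all genes tested. Of the 46 genes 22 fell (47.8%), against 29.2% of all genes, and 13 rose (28.3%), a share close to the 27.7% of all genes. The members' median change was -0.06 on the scale of log2(FPKM + 1), and that of all genes was -0.01. The deposited bounds of the refed and fasted libraries were apart, with refed lower in both genotypes, for 21 members (24.7% of all genes), and apart with refed higher in both for 16 (20.7% of all genes). Bounds are narrower for abundant genes, and the members are abundant, so these shares are not matched for level. The shares called in limma are not matched for level either. With a minimum mean of 5 FPKM, 5953 of 9203 genes were called for feeding state and the members stayed at 35.

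**Figure D2:**
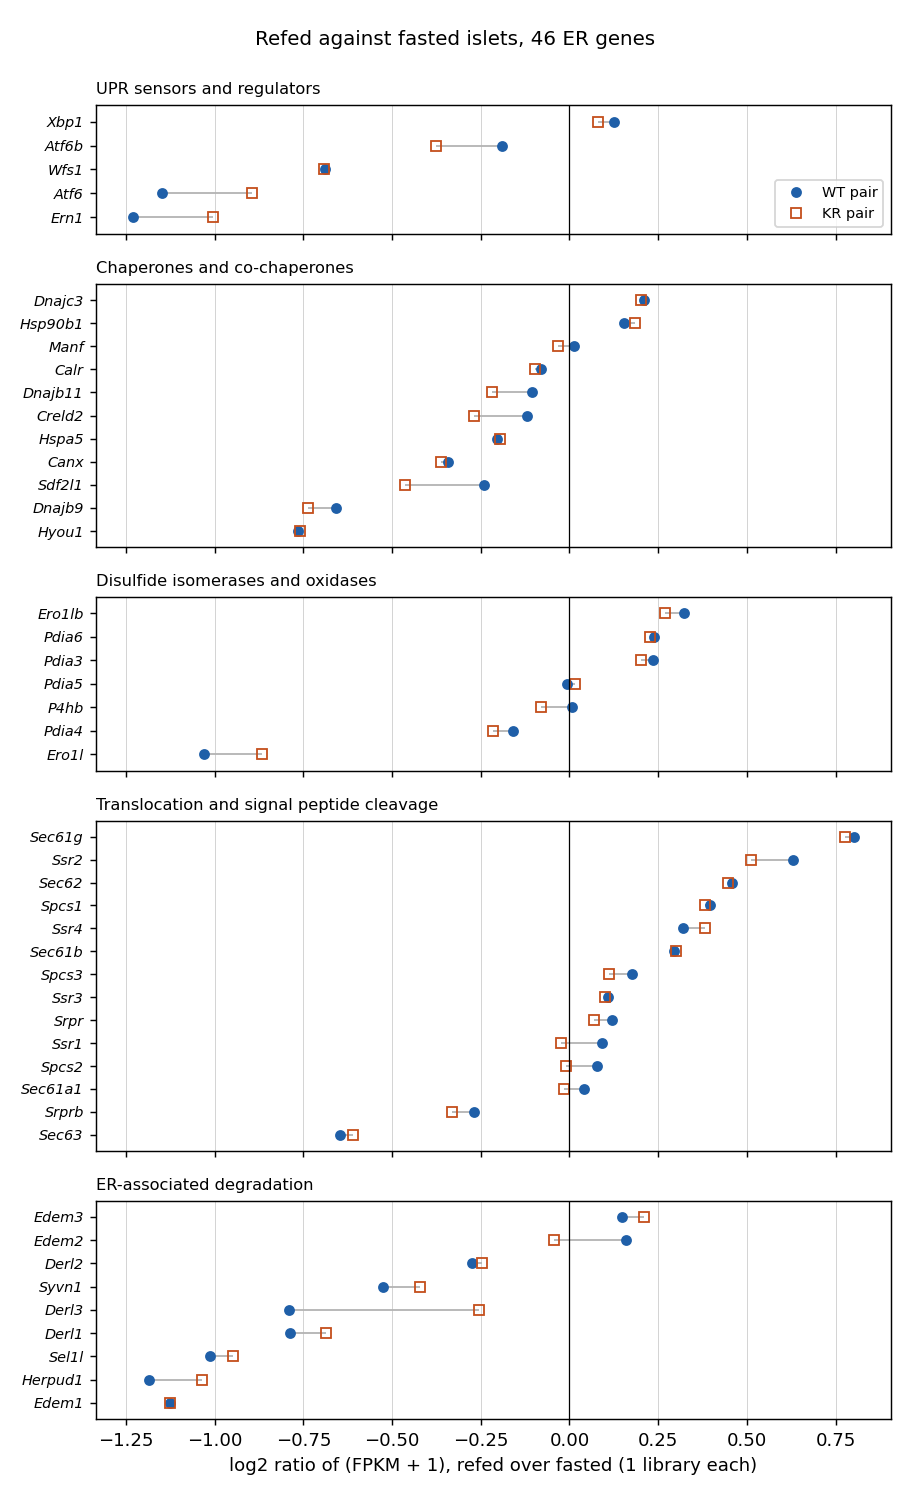
Log2 ratio of refed to fasted for each member on the scale of log2(FPKM + 1), with WT and KR as separate points of 1 library pair each, grouped by step. The ratios run from -1.23 for Ern1 in WT to 0.80 for Sec61g in WT, and the 2 points of most genes lie close together.

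Among the sensors and regulators, 4 of 5 fell and 0 rose, with a median change of -0.69. Ern1 (chr11:106258934-106349110, mm9), which encodes the kinase and RNase IRE1, had an FPKM of 90.3 in WT and 87.1 in KR after the fast, against 37.9 and 42.9 after refeeding. Refed islets thus held 42.0% of the fasted level in WT and 49.3% in KR, and the fasted and refed values did not overlap. The fitted change was -1.12 ± 0.07 (SE, 4 libraries; limma, adjusted p = 9.52e-06). Atf6 (chr1:172634588-172797902), the sensor that is cut in the Golgi to release a transcription factor, stood at 71.8 and 62.1 FPKM in fasted WT and KR, and at 31.8 and 33.0 FPKM in refed WT and KR. Both refed libraries were below both fasted libraries, and the change was -1.02 ± 0.07 (SE; limma, adjusted p = 1.92e-05). Wfs1, which encodes the ER membrane protein wolframin whose loss causes a syndrome with diabetes, measured 75.1 FPKM in fasted WT, 70.9 in fasted KR, then 46.2 in refed WT and 43.5 in refed KR. Its ratio was -0.69 in either genotype (limma, adjusted p = 3.73e-05). Atf6b, the paralogue of Atf6, fell by 0.28 (limma, adjusted p = 0.00916).

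Xbp1 (chr11:5420970-5425875) was the one gene of this step not called. Its FPKM was 249 in fasted WT, 267 in fasted KR, then 272 in refed WT and 282 in refed KR. The refed level was 109% of the fasted one in WT and 106% in KR, and the change of 0.10 ± 0.05 did not pass (SE; limma, adjusted p = 0.125). The deposited bounds of refed and fasted were apart in both genotypes, with refed higher, and they cover counting error only. The FPKM values sum all transcripts of the gene and do not separate spliced from unspliced Xbp1 mRNA. Ern1 and Xbp1 are enzyme and substrate of the same branch, and the difference between their changes was not tested.

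Relative to its own fasted sum, ER-associated degradation was the step that was lowest after refeeding. Its 9 genes together held 842.0 FPKM in fasted WT and 478.0 in refed WT, or 56.8%, and 60.3% in KR. The sum over all genes tested, which leaves out Ins2 because its fasted KR value is missing, was 111.7% and 109.9%. That sum is weighted to the most abundant mRNAs, and the median change of all genes was -0.01. Herpud1, described below, was the most abundant of the 9 genes and weighs most in their sum. Of the 9 genes 7 fell, 1 rose and 1 was not called. Their median change was -0.52, and that of the sensors and regulators was lower, at -0.69. Edem1 (chr6:108778635-108809350), a lectin that hands misfolded glycoproteins to degradation, showed the lowest change of all 46 genes. It had 63.0 FPKM in fasted WT, 50.5 in fasted KR, then 28.3 in refed WT and 22.6 in refed KR. Refed islets held 44.9% of the fasted level in WT and 44.8% in KR, and the change was -1.13 ± 0.06 (SE; limma, adjusted p = 4.95e-06). Herpud1 (chr8:96910400-96919258), a membrane protein that organises the degradation complex and carries the ERSE-II shown above, gave 351 and 345 FPKM in fasted WT and KR and 154 and 168 in refed WT and KR. Refed islets held 43.8% of the fasted level in WT and 48.6% in KR, and the change was -1.11 ± 0.06 (SE; limma, adjusted p = 4.58e-06).

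Sel1l, Syvn1 and Derl1, which work with Herpud1 around the same ubiquitin ligase, also fell. Sel1l, the adaptor of the ligase, was at 94.1 FPKM in fasted WT, 86.0 in fasted KR, then 46.1 in refed WT and 44.0 in refed KR (change -0.98 ± 0.06 SE; limma, adjusted p = 8.09e-06). Syvn1, the ligase HRD1 itself, was at 34.4, 32.1, 23.6 and 23.7 FPKM in the same order (-0.47 ± 0.07 SE; limma, adjusted p = 0.000439). Derl1, a channel component for export to the cytosol, was at 160, 147, 92.0 and 90.7 FPKM in that order (-0.74 ± 0.06 SE; limma, adjusted p = 2.61e-05). In each of these genes both refed libraries were below both fasted ones, with the adaptor reduced most. The smallest decrease among the 7 was that of Derl2, another derlin, with 51.8 FPKM in fasted WT, 54.3 in fasted KR, then 42.6 in refed WT and 45.6 in refed KR (-0.26 ± 0.06 SE; limma, adjusted p = 0.00576).

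The 2 remaining EDEM genes did not follow Edem1. Edem3 rose by 0.18 (limma, adjusted p = 0.0406). Edem2 measured 47.8 FPKM in fasted WT, 54.6 in fasted KR, then 53.6 in refed WT and 53.0 in refed KR, and was not called (limma, adjusted p = 0.491). Its fasted WT library was the low one, and the other 3 libraries lay within overlapping bounds. Derl3, the third derlin, was the least abundant member, with 10.97 FPKM (bounds 9.75 to 12.2) in fasted WT, 6.11 (5.21 to 7.02) in fasted KR, then 5.92 (4.83 to 7.004) in refed WT and 4.96 (3.69 to 6.23) in refed KR. Only the fasted WT library stood apart from the others, and the refed KR value rests on about 61 fragments. Derl3 fell in the additive fit (-0.52 ± 0.12 SE; limma, adjusted p = 0.00667), but the bounds of refed and fasted KR overlapped.

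Among the 11 chaperones 7 fell, 2 rose and 2 were not called, with a median change of -0.20. Hyou1, the exchange factor that recharges BiP, and Dnajb9, a J-domain co-chaperone of BiP, had the lowest feeding changes of the step. Hyou1 stood at 289 FPKM in fasted WT, 268 in fasted KR, then 170 in refed WT and 158 in refed KR (-0.76 ± 0.05 SE; limma, adjusted p = 1.47e-05). Dnajb9 stood at 365, 367, 231 and 220 FPKM in the same order (-0.70 ± 0.05 SE; limma, adjusted p = 2.41e-05). In both the refed level was between 58.7% and 63.2% of the fasted level in each genotype. Canx, the membrane lectin calnexin, gave 301, 284, 237 and 221 FPKM in that order (-0.35 ± 0.05 SE; limma, adjusted p = 0.000578). Sdf2l1, a partner of ER J-proteins, gave 173, 153, 146 and 110 FPKM (-0.35 ± 0.07 SE; limma, adjusted p = 0.00204). For these 2 genes the lowest fasted value still lay above the highest refed one.

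Hspa5 (chr2:34627610-34632049), which encodes BiP and was the most abundant member, changed much less with feeding. Its FPKM was 2085 in fasted WT, 1661 in fasted KR, then 1809 in refed WT and 1450 in refed KR. Refed islets held 86.8% of the fasted level in WT and 87.3% in KR (-0.20 ± 0.05 SE; limma, adjusted p = 0.00779), yet the refed WT value exceeded the fasted KR value. Of the other chaperones, Dnajb11 and Creld2 fell by 0.16 and 0.20, and Hsp90b1 and Dnajc3 rose by 0.17 and 0.21 (limma, adjusted p = 0.0123 to 0.047). Calr and Manf were not called for feeding state (limma, adjusted p = 0.157 and 0.888). Summed over the step, refed islets held 89.7% of the fasted FPKM in WT and 88.8% in KR.

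The disulfide step held an opposite pair of oxidases. Ero1l (chr14:45902762-45938247) and Ero1lb (chr13:12658150-12701795) encode the oxidases ERO1-alpha and ERO1-beta, which recharge protein disulfide isomerases, and ERO1-beta is known as the form enriched in the pancreas. Ero1l had 75.3 FPKM in fasted WT, 70.9 in fasted KR, then 36.4 in refed WT and 38.4 in refed KR (-0.95 ± 0.07 SE; limma, adjusted p = 1.47e-05). Ero1lb had 180, 206, 226 and 248 FPKM in the same order (0.30 ± 0.05 SE; limma, adjusted p = 0.00167). Within each genotype the refed libraries were below the fasted ones for Ero1l and above them for Ero1lb. A stretch of 921 bases of the Ero1lb transcript, 21.7% of its length, is 98.0% identical to a pseudogene transcript, so some of its fragments could be shared. Pdia3 and Pdia6, disulfide isomerases, rose by 0.22 and 0.23, Pdia4 fell by 0.19 (limma, adjusted p = 0.00455 to 0.0178), and Pdia5 and P4hb were not called.

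In the translocation step 7 of 14 genes rose, 2 fell and 5 were not called, with a median change of 0.12. Summed FPKM in refed islets was 120.3% of fasted in WT and 118.4% in KR, beside 111.7% and 109.9% for all genes tested, without Ins2. Sec61g (chr11:16401641-16408487), the small gamma subunit of the channel, had the highest change of all members. It had 14.3 FPKM in fasted WT, 14.8 in fasted KR, then 25.7 in refed WT and 26.1 in refed KR (0.79 ± 0.07 SE; limma, adjusted p = 3.79e-05). Refed islets held 179.7% of the fasted level in WT and 176.2% in KR. Transcripts of 4 other genes match the Sec61g transcript at 95% identity or more over at least 200 bases, so how its fragments were assigned is uncertain. The same holds for Sec61b, the beta subunit, where 84.0% of the transcript matches that of Gm10320. Sec61b rose by 0.30 (limma, adjusted p = 0.00128).

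Of the translocon's partners, Ssr2, a subunit of the TRAP complex that assists translocation, had 239 FPKM in fasted WT, 246 in fasted KR, then 371 in refed WT and 352 in refed KR (0.57 ± 0.06 SE; limma, adjusted p = 6.91e-05). Ssr4, another TRAP subunit, had 470, 462, 587 and 602 FPKM in the same order (0.35 ± 0.05 SE; limma, adjusted p = 0.000546). Spcs1, a subunit of the signal peptidase, had 184, 177, 242 and 231 FPKM (0.39 ± 0.05 SE; limma, adjusted p = 0.000365). In all 3 genes both refed libraries exceeded both fasted ones, and the Spcs1 locus overlaps Glt8d1. Spcs3 rose by 0.14 (limma, adjusted p = 0.0492), whereas Ssr1, Ssr3, Spcs2, Sec61a1 and Srpr were not called.

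Sec62 and Sec63, which form 1 complex beside the Sec61 channel, changed in opposite directions. Sec62 had 61.8 FPKM in fasted WT, 61.5 in fasted KR, then 85.4 in refed WT and 84.2 in refed KR (0.45 ± 0.06 SE; limma, adjusted p = 0.000259). Sec63, which carries the J domain that engages BiP, had 53.3, 50.2, 33.7 and 32.6 FPKM in the same order (-0.63 ± 0.06 SE; limma, adjusted p = 6.95e-05). The 2 genotypes gave nearly the same ratios, 0.46 and 0.45 for Sec62 and -0.65 and -0.61 for Sec63. Srprb, the membrane anchor of the signal recognition particle receptor, was the other gene of the step that fell, with 38.8, 39.5, 32.0 and 31.2 FPKM (-0.30 ± 0.06 SE; limma, adjusted p = 0.00365).

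**Figure D3:**
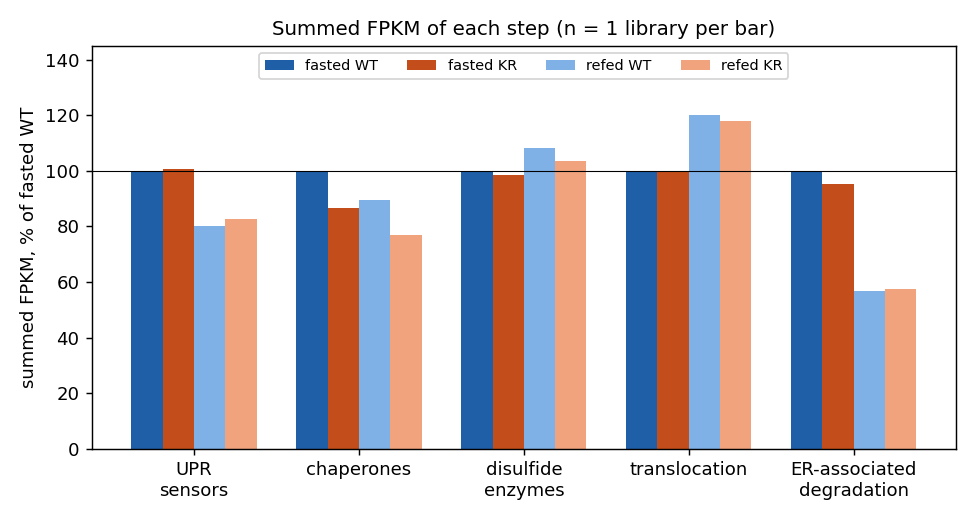
Summed FPKM of each step as a percentage of its sum in fasted WT, for the 4 libraries, with bars starting at 0 and no error bars since each bar is 1 library. The degradation bars drop to 56.8% in refed WT, the translocation bars reach 120.3% in refed WT, and the chaperone bars are lower in KR than in WT in both feeding states.

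Genes with an ERSE were found among those that rose and among those that fell with refeeding. Of the 10 genes with the element, 4 rose (Hsp90b1, Dnajc3, Pdia6 and Ero1lb), 5 fell (Hspa5, Canx, Creld2, Syvn1 and Derl3) and Calr was not called, and their changes ran from -0.52 to 0.30 with a median of -0.14. The 29 genes without one included 7 that rose and 14 that fell, with changes from -1.13 to 0.79 and a median of -0.04. The 2 groups were not compared by a test. Both members with the ERSE-II, Herpud1 and Dnajb11, fell. Among all genes tested 6 had an ERSE-II, these members included, of which 3 fell and 1 rose.

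These feeding calls depend on the variance model, which rests on 1 residual degree of freedom per gene. Without the filter on low values no member was called, although 27 had an unadjusted p under 0.05, and without the mean-variance trend 9 rose and 18 fell, with Hspa5, Hsp90b1, Dnajb11, Dnajc3, Creld2, Pdia4, Spcs3 and Edem3 no longer called.

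The comparison of KR with WT asks how the FoxO1 exchange bears on the same genes. Hspa5 was lower in KR in both feeding states, and it was the 1 member called. Its level in KR was 79.7% of WT in fasted islets, 1661 against 2085 FPKM, and 80.2% in refed islets, 1450 against 1809 FPKM. The bounds of KR and WT did not overlap in either state, and the fitted change was -0.32 ± 0.05 (SE; limma, adjusted p = 0.02). Of all genes 1.26% were called for genotype and 0.661% as lower, so 1 of 46 (2.17%) is close to the background. The call held in 7 of 9 other settings and was lost without the filter on low values and without the trend (limma, adjusted p from 6.68e-11 to 0.771 over the 9).

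**Figure D4:**
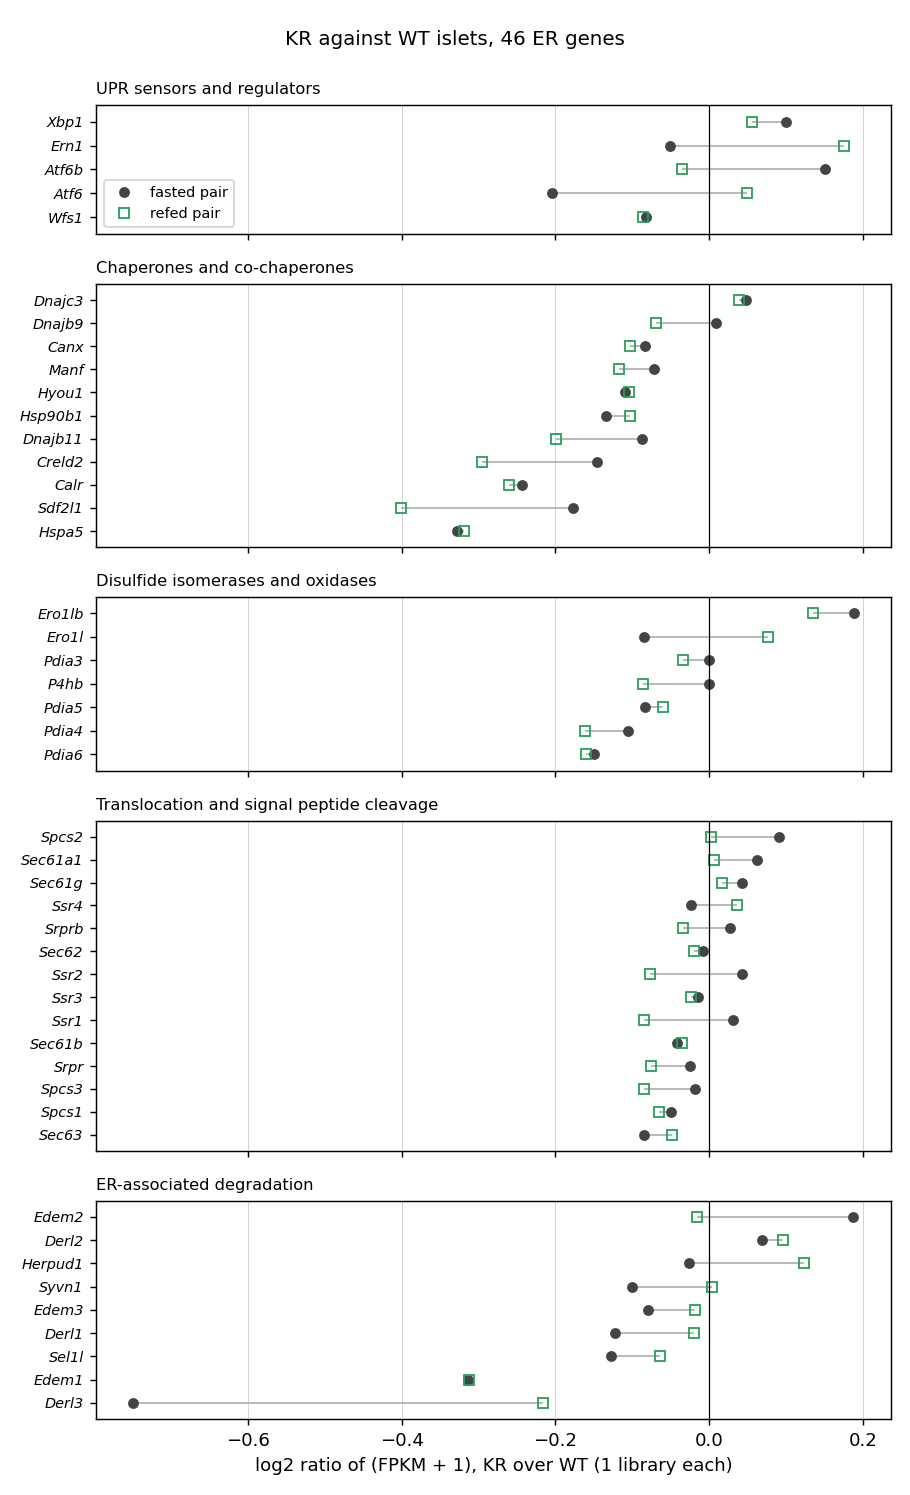
Log2 ratio of KR to WT for each member on the scale of log2(FPKM + 1), with the fasted and the refed pair as separate points, grouped by step. Hspa5 lies at -0.33 (fasted) and -0.32 (refed), most chaperones lie below 0, and the fasted Derl3 point is the lowest at -0.75.

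The direction was shared by most chaperones, though no other one was called. Of the 11 chaperones 9 had a KR to WT ratio below 0 in both feeding states, against 26 of all 46 members (56.5%) and 42.7% of all genes. Summed over the step, KR held 86.6% of the WT level in fasted islets and 85.8% in refed islets, while the other 4 steps lay between 95.3% and 103.3%. Without Hspa5 and Calr, its 2 most abundant genes, the other 9 chaperones held 93.8% and 91.8%, a sum added after the values were seen. The chaperone count was 9 of 11 as well after the libraries were rescaled by the median of ratios or without the 100 most abundant genes. By contrast, the translocation genes went from 7 of 14 to 1 and 0 of 14 and all members from 26 to 17 and 14 under those scalings, so their ratios just below 0 depend on the scaling. The median change of all genes was -0.04 as deposited and 0.01 without the 100 most abundant genes. Of all genes called for genotype 47.7% were higher in KR as deposited, 62.8% by the median of ratios and 65.7% without the 100 most abundant genes.

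KR lay below WT with bounds apart in both feeding states for 11 members (23.9%), against 4.79% of all genes. They were the chaperones Hspa5, Hsp90b1, Calr, Canx, Sdf2l1, Hyou1, Creld2 and Manf, the isomerases Pdia4 and Pdia6, and Edem1. These bounds hold no variation between pools or mice. They are narrower for abundant genes, and the members are abundant, so the shares are not matched for level. The bounds were compared only as deposited, without rescaling. Of the 10 genes with an ERSE 6 were in this group, and of the 29 without one 3 were, with Hyou1 and Manf not matched to a promoter.

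Edem1 and Calr came closest to the threshold. Edem1 in KR was at 80.1% of WT in fasted islets and 79.8% in refed islets (-0.31 ± 0.06 SE; limma, adjusted p = 0.054). Calr, the lectin calreticulin, named here after its values were seen, had 1248 FPKM in fasted WT, 1054 in fasted KR, then 1181 in refed WT and 986 in refed KR (-0.25 ± 0.05 SE; limma, adjusted p = 0.0537). Both KR libraries of Calr were below both WT libraries, and both genes passed in 4 of 9 other settings. Sdf2l1 was at 88.4% of WT in fasted and 75.6% in refed islets (-0.29 ± 0.07 SE; limma, adjusted p = 0.0873). Derl3 had the lowest fitted change of all members, -0.48 ± 0.12, but most of it came from the fasted pair (SE; limma, adjusted p = 0.113).

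At the upper end none of the members was called. Ero1lb had the highest change with 114.1% of WT in fasted and 109.8% in refed islets (0.16 ± 0.05 SE; limma, adjusted p = 0.192). Edem2 and Derl2 followed with changes of 0.09 and 0.08 (limma, adjusted p = 0.597 and 0.552). Xbp1, Atf6 and Ern1 changed by 0.08, -0.08 and 0.06 in the fit, none of them past the test (limma, adjusted p = 0.514 to 0.721).

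Whether refeeding acted differently in the 2 genotypes could not be tested, since the difference of 2 ratios takes up the last degree of freedom. Derl3 had the largest difference, with a refed to fasted ratio of -0.79 in WT and -0.26 in KR. The next were Atf6, with -1.15 in WT and -0.89 in KR, and Ern1, with refed levels at 42.0% and 49.3% of fasted in WT and KR. The fasted WT value of Derl3 and Atf6 enters both their genotype and their feeding ratio, so these are not separate observations. Hspa5, Edem1, Wfs1, Hyou1, Dnajc3, Ssr3 and Sec61b gave ratios that differed by 0.01 or less between the genotypes.

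Other genes of the same compartment, listed by function, numbered 104, of which 95 could be tested. With refeeding 37 rose (38.95%), 24 fell (25.26%) and 34 were not called in limma. Of all genes 27.7% rose and 29.2% fell. The lists are short, and their counts were not tested against these shares. Of 14 genes of the signal recognition particle, the signal peptidase and the translocon's partners 9 rose and 2 fell, of 10 oligosaccharyltransferase genes 6 rose and 1 fell, and of 18 further disulfide and prolyl isomerases 11 rose and 2 fell. Of 15 further signalling genes of the unfolded protein response 8 fell and 1 rose, and of 21 further degradation factors 8 fell and 4 rose. Glycan trimming genes (3 of 8 rose, 3 fell) and further co-chaperones (3 of 9 rose, 0 fell) made up the rest.

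Ppp1r15a, the stress-induced subunit that directs a phosphatase to eIF2-alpha, had the lowest feeding change of these genes. It had 113 FPKM in fasted WT, 73.4 in fasted KR, then 22.9 in refed WT and 22.4 in refed KR (-1.96 ± 0.12 SE; limma, adjusted p = 7.69e-06). Its constitutive paralogue Ppp1r15b fell by 0.78 (limma, adjusted p = 5.61e-05). Eif2ak3, the sensor kinase PERK that phosphorylates eIF2-alpha, had 29.3, 29.5, 23.4 and 22.9 FPKM in the same order (-0.33 ± 0.07 SE; limma, adjusted p = 0.00255). The mRNA of all 3 membrane sensors, Ern1, Atf6 and Eif2ak3, was thus lower in the refed than in the fasted library of each genotype. At the other end Dnajc10, an ER reductase, and Selk, a selenoprotein of the degradation complex, rose by 0.78 and 0.70 (limma, adjusted p = 2.5e-05 and 3.2e-05). With genotype Fkbp9, a prolyl isomerase, was higher in KR by 0.29 and Bax, an apoptosis effector, was lower by 0.31 (limma, adjusted p = 0.0428 and 0.0401).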

How the data were processed

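Islet RNA of 4 pooled libraries was sequenced. Per the submitters' processing notes, bcl2fastq 1.8.4 split the reads by library and TopHat2 2.0.4 placed them on mm9. Per the file headers, the authors deposited FPKM per gene, together with a status, a low bound and a high bound. Which program and annotation made them, and the total they were scaled by, is not given in the sources. The members and gene lists were chosen with earlier results of these data known.

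Rows of 1 symbol were summed, values without the status OK were set missing, and symbols with a mean FPKM of at least 1 were tested on log2(FPKM + 1), which understates the change of low genes. limma 3.58.1 in R 4.3.3 fitted feeding state and genotype additively over the 4 libraries with a mean-variance trend, and p-values were adjusted by Benjamini-Hochberg over 11953 genes. The interaction counts as error, so an SE comes from 1 residual and 7.58 prior degrees of freedom. On simulated data the fit recovered known changes, but false calls were more frequent than the threshold of 0.05 states, so adjusted p-values may be too small. With 1 pool per group, the p-values rest on the departure from additivity within these 4 libraries and on a prior from all genes. The spread between pools of 1 group is not measured.

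Fragments were taken as the squared ratio of FPKM to its SE, with the bounds read as 2 SE to either side, which gave 26407398 (fasted WT), 25711229 (fasted KR, without Ins2), 18096754 (refed WT) and 11074797 (refed KR). Bounds cover counting error only. Values in every library are given for members called for genotype, with a feeding change of at least 0.3 in either direction, among the 3 highest or lowest of a contrast, or Xbp1, Atf6, Ern1 and Hspa5. Of the other listed genes, Eif2ak3 and the called genes with the 2 largest changes in each direction are named. Coordinates of genes are mm9, counted from 1, and those of promoters are GRCm38.p6. The 9 alternatives were another pseudocount, 2 filters, 2 priors, 2 scalings, the highest row of each symbol and limma-voom on the implied fragments.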

Additional observations from a re-analysis of the deposited data

Results flagged for a closer look

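In 12 comparisons the 2 genotypes or the 2 feeding states gave log2 ratios of opposite sign, with the deposited bounds apart in at least 1 of the 2 pairs. The differences were not tested. For KR against WT, the refed ratio minus the fasted ratio was 0.25 for Atf6, -0.19 for Atf6b, 0.23 for Ern1, -0.034 for Pdia3, 0.16 for Ero1l, -0.11 for Ssr1, 0.15 for Herpud1 and -0.20 for Edem2. For refed against fasted, the KR ratio minus the WT ratio was -0.086 for P4hb, -0.11 for Ssr1, -0.089 for Spcs2 and -0.20 for Edem2. In Atf6, Ern1, Ero1l and Herpud1 the KR library was the lower one in fasted islets and the higher one in refed islets, and all 4 genes fell with refeeding. Each such difference rests on 4 single pools.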

How the results depend on the processing

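No member reversed its direction past the threshold under any of the 9 alternatives. Without the filter on low values 0 members were called for feeding state (0 higher, 0 lower) and 0 for genotype in limma, with 27 and 7 at an unadjusted p under 0.05. The number called for genotype was 3, all lower, with a pseudocount of 0.1, with a minimum mean of 5 FPKM and with a robust prior (Hspa5, Calr and Edem1), 0 without the trend, and 7, of which 6 were lower, with limma-voom, where Ero1lb was the higher one. In voom Sdf2l1, Creld2 and Derl3 were added. The median change with feeding state was -0.13 after rescaling without the 100 most abundant genes, where the median of all genes was -0.07, and there Hsp90b1, Spcs3 and Edem3 lost the call and Calr gained one as lower. The median change with genotype was -0.05 as deposited, -0.01 by the median of ratios and 0.0022 without the 100 most abundant genes, a change of sign. All other alternatives kept the counts within 1.5 times.

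With 1 library in each group, leaving out a library within a group was not run. No paired analysis was possible because each group holds 1 library and the labels give no replicate numbers. Depth limits Derl3 most, with 61 implied fragments in refed KR and bounds 25.6% to either side.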
